A study of Mus musculus with 18 samples.

Results

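The genes described here encode 10 enzymes that make, break down or modify ceramide and the sphingolipids derived from it: Cers2, Cers4, Cers5, Cers6, Smpd1, Asah1, Cerk, Ugcg, Sphk1 and Sgpl1. They were chosen by symbol, and the Ensembl IDs of all 10 were found among the 11164 genes of the deposited table. The list was drawn up with earlier results of these data in view, among them the fall of Cerk with LPS and the position of Cers4 near the BAFF gene. The response of these genes to LPS is therefore given as a description without a test, and the tests between genotypes are not independent of that choice.

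RNA was sequenced from mouse macrophages grown out of bone marrow, all labelled with the strain C57BL/6J and with a preterm birth time point in gestation. The BAFF KO, APRIL KO and wild-type (WT) cells were each given 10 ng/ml lipopolysaccharide (LPS) for 4 h or left unstimulated. LPS is the bacterial cell wall component that Toll-like receptor 4 senses, and BAFF and APRIL are cytokines of the tumour necrosis factor family known for sustaining B cells and plasma cells. There were 2 LPS libraries and 1 unstimulated library per genotype, 9 in all, each present as 2 columns that were averaged. The labels used here do not say how the knockouts were made, how many mice were used, or whether libraries within a group are separate mice or cultures. The spread behind the p-values is therefore that of these libraries alone and may be technical.

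Ceramide is the hub of sphingolipid metabolism. Ceramide synthases (Cers) join a fatty acid to a sphingoid base, each with its own preference for the length of the fatty acid, and sphingomyelinases release ceramide from membrane sphingomyelin. Ceramide can then be phosphorylated, given a glucose, or cleaved to sphingosine, which sphingosine kinases turn into the signalling lipid sphingosine 1-phosphate. In macrophages these lipids are known from membrane remodelling, phagocytosis, lysosomal turnover and inflammatory signalling.

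Libraries held 5121833 to 6020780 reads in the listed genes. Levels are given as RPKM, a level per gene length and relative to all reads of a library, so that strong induction of some genes lowers the RPKM of the rest. In bulk RNA, fewer cells of a type and less RNA per cell cannot be told apart. All 8 macrophage markers were listed and had reads in every library, with a summed level of 4700 to 7620 RPKM over the 9 libraries. Most of that sum was Lyz2, with group means of 2978 to 5272 RPKM. With LPS, Cd14 averaged 104 RPKM in BAFF KO, 193 in APRIL KO and 198 in WT cells, and Fcgr1 74.7, 131 and 141. Lyz2 and Mrc1 with LPS were instead highest in BAFF KO. Nos2, the inducible nitric oxide synthase, checks the LPS label and had 308 to 533 RPKM in the 6 LPS libraries and at most 0.861 RPKM in the 3 unstimulated ones. Not every LPS gene was alike between genotypes. Il1b averaged 371 RPKM in BAFF KO, 2409 in APRIL KO and 2395 in WT cells with LPS. In the same order Il6 averaged 314, 457 and 452 RPKM, Tnf 708, 647 and 648, and Cxcl10 3158, 3096 and 3481. Tnfsf13, the APRIL gene, had 0 reads in every APRIL KO library, against 253 reads in the 2 WT LPS libraries and 392 in the unstimulated WT library. The BAFF gene Tnfsf13b was not analysed here. The sum of 15 skeletal muscle genes stood apart, at 40.3 to 53.1 RPKM in the BAFF KO LPS libraries and 27.5 to 62.1 in the APRIL KO LPS libraries, against 248 to 368 in the WT LPS libraries, and at 24.6 RPKM in unstimulated BAFF KO and 39.2 in unstimulated APRIL KO cells, against 250 in unstimulated WT cells.

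Under the 2 conditions the enzymes spanned a wide range of levels. In the unstimulated libraries Asah1 was highest at 181 to 199 RPKM, followed by Sgpl1 at 80.1 to 125 and Cers2 at 73.1 to 85.2 RPKM, 2 ranges that overlapped. Cerk came next at 30.0 to 46.1 RPKM and Cers5 at 12.4 to 16.4. Cers6 at 5.41 to 7.81, Ugcg at 4.06 to 6.32 and Smpd1 at 4.17 to 5.98 RPKM overlapped one another, and Sphk1 was lower at 0.651 to 1.24 RPKM. Cers4 lay at 0.406 to 0.446 RPKM in APRIL KO and WT cells and at 4.56 RPKM in BAFF KO cells. With LPS, Cers6 came next after Asah1, Sgpl1 and Cers2, and Cerk was among the low genes at 3.53 to 4.41 RPKM.

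**Figure D1:**
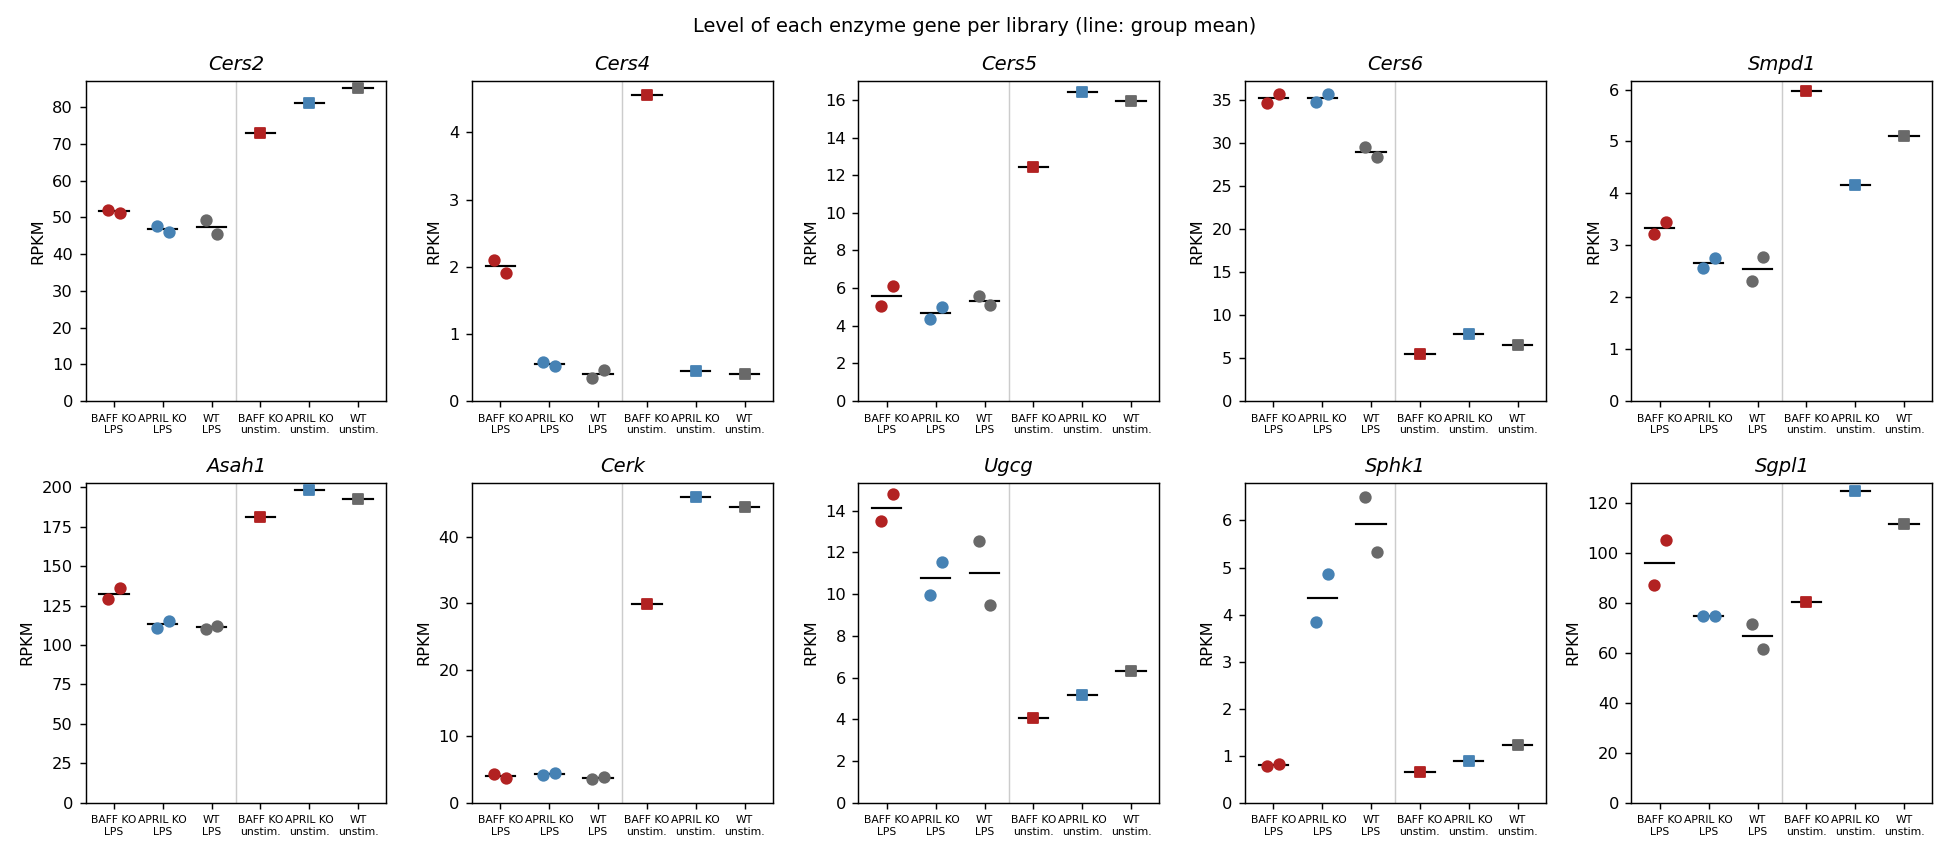
Level of each enzyme gene in RPKM for the 9 libraries, with LPS groups left of the unstimulated ones; each point is 1 library (circles LPS, squares unstimulated) and each line a group mean. Cerk lies at 3.53 to 4.41 RPKM in all LPS libraries and at 30.0 to 46.1 in the unstimulated ones, while Sphk1 with LPS lies at 0.780 and 0.831 RPKM in BAFF KO libraries and at 5.33 and 6.51 in WT libraries.

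As a description of the LPS response, 5 of the 10 genes were lower and 2 higher in all 6 LPS libraries than in all 3 unstimulated ones. The same held for 49.0% of the 9934 genes tested on the lower side and 14.2% on the higher side, and since the list was chosen with this contrast known, nothing is read from the comparison. The lower genes were Cerk, Cers2, Cers5, Smpd1 and Asah1, and the higher ones Cers6 and Ugcg. Cers4, Sphk1 and Sgpl1 overlapped between conditions, though in the APRIL KO and WT libraries alone Sphk1 was higher and Sgpl1 lower in every LPS library. The median averaged LPS difference of the 10 genes was -0.53 in log2(RPKM + 1), a scale on which the change of genes with few reads is understated, and that of all 9934 genes was -0.44. With median ratio scaling in place of the scaling to all reads, the median of all genes moved to -0.02, so LPS differences are also given below relative to the median. Under that scaling only Cerk, Cers2 and Cers5 kept LPS libraries wholly below the unstimulated ones, and Smpd1 and Asah1 overlapped.

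The 4 ceramide synthases went separate ways with LPS. Cers6, which prefers fatty acids of medium to long chain such as palmitate, had 34.7 and 35.7 RPKM in the BAFF KO LPS libraries, 34.8 and 35.7 in the APRIL KO LPS libraries and 29.6 and 28.4 in the WT LPS libraries. Unstimulated cells had 5.41 RPKM of Cers6 in BAFF KO, 7.81 in APRIL KO and 6.53 in WT. All LPS libraries were thus far above all unstimulated ones, by 6.51-fold in BAFF KO, 4.52-fold in APRIL KO and 4.44-fold in WT cells. The fold of Sphk1, described below, was larger in APRIL KO and WT cells, at 4.93 and 4.79. The averaged difference of Cers6 was 2.18 ± 0.067 (log2(RPKM + 1), SE of the fit), the highest of the 10, and 2.61 above the median of all genes. The RefSeq promoter window of Cers6 (GRCm38.p6, chr2:68861191-68861490, plus strand, 250 bases before to 50 after the start) is shown because this gene had the highest averaged difference, and its capitals mark CACGTG, the core of an E-box.
Cers6: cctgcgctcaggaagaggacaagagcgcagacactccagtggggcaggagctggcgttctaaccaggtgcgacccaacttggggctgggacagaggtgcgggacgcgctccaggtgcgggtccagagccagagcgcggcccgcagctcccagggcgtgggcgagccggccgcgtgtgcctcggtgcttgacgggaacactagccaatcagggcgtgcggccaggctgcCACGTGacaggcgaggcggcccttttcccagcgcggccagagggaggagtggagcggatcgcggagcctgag
CACGTG was found on either strand in 7.15% of all 32851 mouse promoter windows and, among the 9 members with a window, in those of Cers6 and Cers2. A match is a description of the letters and not a binding site.

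Cers2, which makes ceramides with very long acyl chains, was the most abundant synthase in every library. It had 52.2 and 51.3 RPKM in the BAFF KO LPS libraries, 47.8 and 45.9 in the APRIL KO LPS libraries and 49.2 and 45.6 in the WT LPS libraries. Unstimulated levels were 73.1 RPKM in BAFF KO, 81.3 in APRIL KO and 85.2 in WT cells, all above the LPS libraries. Its averaged difference was -0.70 ± 0.058, which is -0.27 relative to the median of all genes. Cers2 overlaps Setdb1 on the opposite strand, and the labels name both a strand-keeping and another library kit, so reads of the overlapping stretch cannot be assigned with certainty. Cers5, another synthase with a preference for palmitate, had 5.07 and 6.11 RPKM in the BAFF KO LPS libraries, 4.36 and 4.996 in the APRIL KO LPS libraries and 5.55 and 5.12 in the WT LPS libraries. Unstimulated cells had 12.4 RPKM of Cers5 in BAFF KO, 16.4 in APRIL KO and 16.0 in WT. No LPS library reached an unstimulated one, and the averaged difference was -1.36 ± 0.101, or -0.92 relative to the median.

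Within each library the shares of the 4 synthases in their summed RPKM do not depend on the scaling to all reads, but they do depend on the gene lengths used. The length behind the Cers5 RPKM, 4910 bases, is more than the 3542 bases of its exons in GENCODE M21, and that behind Cers4 is less, as given below, so the levels, shares and order of these 2 genes among the synthases depend on the annotation. Cers6 made up 37.3% ± 0.484 of the sum in BAFF KO, 40.4% ± 0.845 in APRIL KO and 35.3% ± 0.531 in WT cells with LPS (SD, n = 2 each), against 5.66%, 7.37% and 6.04% in the unstimulated library of the same genotype. Cers2 made up 54.7% ± 1.06, 53.6% ± 1.33 and 57.7% ± 0.575 with LPS in BAFF KO, APRIL KO and WT cells (SD, n = 2 each), against 76.5%, 76.7% and 78.8% without it. The share of Cers5 was 5.91% ± 0.737, 5.36% ± 0.532 and 6.49% ± 0.0894 with LPS in the same order of genotypes (SD, n = 2 each), against 13%, 15.5% and 14.8% without it. The ratio of Cers6 to Cers2 was 0.681 ± 0.022 in BAFF KO, 0.753 ± 0.0344 in APRIL KO and 0.612 ± 0.0153 in WT cells with LPS (SD, n = 2 each), and 0.0740, 0.0961 and 0.0766 without it. The summed level of the 4 genes was 94.5 RPKM in BAFF KO, 87.4 in APRIL KO and 82.1 in WT cells with LPS, against 95.6, 106 and 108 RPKM without it.

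**Figure D2:**
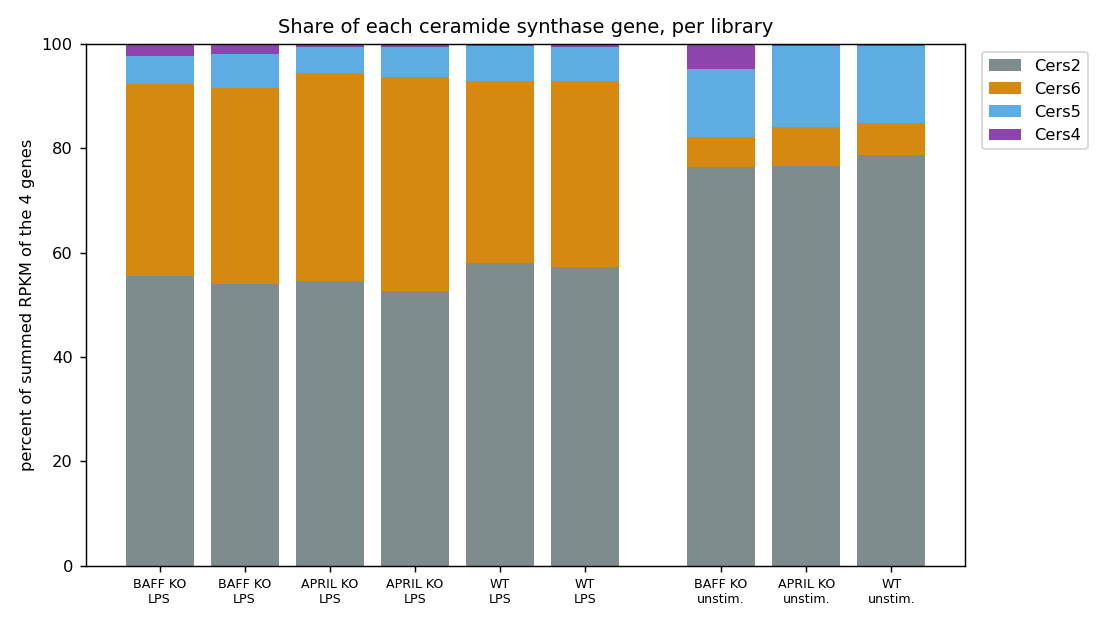
Share of each ceramide synthase gene in the summed RPKM of the 4 genes, in percent, for each of the 9 libraries. Cers6 takes 34.9% to 41.0% in the 6 LPS libraries and 5.66% to 7.37% in the 3 unstimulated ones, and Cers4 is visible mainly in BAFF KO libraries.

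Cers4, which prefers stearate and slightly longer fatty acids, was the least abundant synthase, and it was higher in BAFF KO cells. It had 2.11 and 1.91 RPKM in the BAFF KO LPS libraries, 0.583 and 0.520 in the APRIL KO LPS libraries and 0.335 and 0.466 in the WT LPS libraries. The unstimulated BAFF KO library had 4.56 RPKM, against 0.446 in unstimulated APRIL KO and 0.406 in unstimulated WT cells. All BAFF KO libraries lay above all libraries of the other genotypes, in both conditions. With LPS, Cers4 rose in BAFF KO against WT by 1.10 ± 0.141 (log2(RPKM + 1) ± SE; limma, adjusted p = 0.0048) and against APRIL KO by 0.95 ± 0.141 (limma, adjusted p = 0.00978). APRIL KO and WT did not differ past the threshold (0.15 ± 0.141; limma, adjusted p = 0.646). Its share of the summed synthase RPKM was 2.12% ± 0.163 in BAFF KO, 0.631% ± 0.0484 in APRIL KO and 0.490% ± 0.134 in WT cells with LPS (SD, n = 2 each), against 4.77%, 0.421% and 0.376% without it.

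These Cers4 values rest on few reads. The 2 BAFF KO LPS libraries together held 113 reads, the APRIL KO LPS libraries 30 and the WT LPS libraries 19, and the unstimulated libraries held 122, 11 and 10. As a share of all reads, BAFF KO over WT was 5.5 with LPS (95% interval 3.37 to 9.48) and 11.6 without it (6.10 to 24.8). These intervals come from the read counts and cover counting error only, since reads from amplified libraries are not independent molecules. Cers4 passed the filter on low values only through the BAFF KO groups, and without that filter its adjusted p for BAFF KO against WT was 0.00676. Only the shallower column of each library, taken alone, lost this call (adjusted p = 0.065). Over all 17 alternatives its adjusted p (limma) ranged from 1.89e-05, where columns of 1 library count as replicates, to 0.065. The call against APRIL KO was lost when any 1 of the 4 BAFF KO and APRIL KO LPS libraries was left out (adjusted p 0.0579 to 0.0789) and in the shallower columns (0.104).

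Cers4 lies at chr8:4493026-4531680 on the plus strand (mm10, GENCODE M21), 5.47 megabases from Tnfsf13b at chr8:10006467-10039072. Of 52 tested genes within 10 megabases of Tnfsf13b, 2 rose and 3 fell in BAFF KO against WT with LPS, or 9.62%, close to the 8.34% of all genes tested. Atp11a rose by 0.76 (limma, adjusted p = 0.0438), while Rab20 fell by 0.71 (adjusted p = 0.0384), Tmco3 by 0.62 (adjusted p = 0.0216) and Cdc16 by 0.53 (adjusted p = 0.0168). Cers4 had the highest difference of the 52, and their median was -0.02. Whether DNA around the targeted gene bears on Cers4 was not tested. The summed level of the 9 neutrophil markers in the table was also highest in BAFF KO within each condition, at 2320 to 2710 RPKM in BAFF KO, 1590 to 1630 in APRIL KO and 1340 to 1700 in WT cells with LPS, and at 5780, 2730 and 3070 RPKM without it. The unstimulated APRIL KO and WT sums were above those of BAFF KO with LPS, a comparison across conditions, where RPKM levels also shift with LPS. None of these 9 was at 0 reads in any column, and their part in the Cers4 result was not tested. The gene length behind the Cers4 RPKM, 5044 bases, is less than the 12264 bases of its exons in GENCODE M21, so its level beside other genes depends on the annotation.

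**Figure D3:**
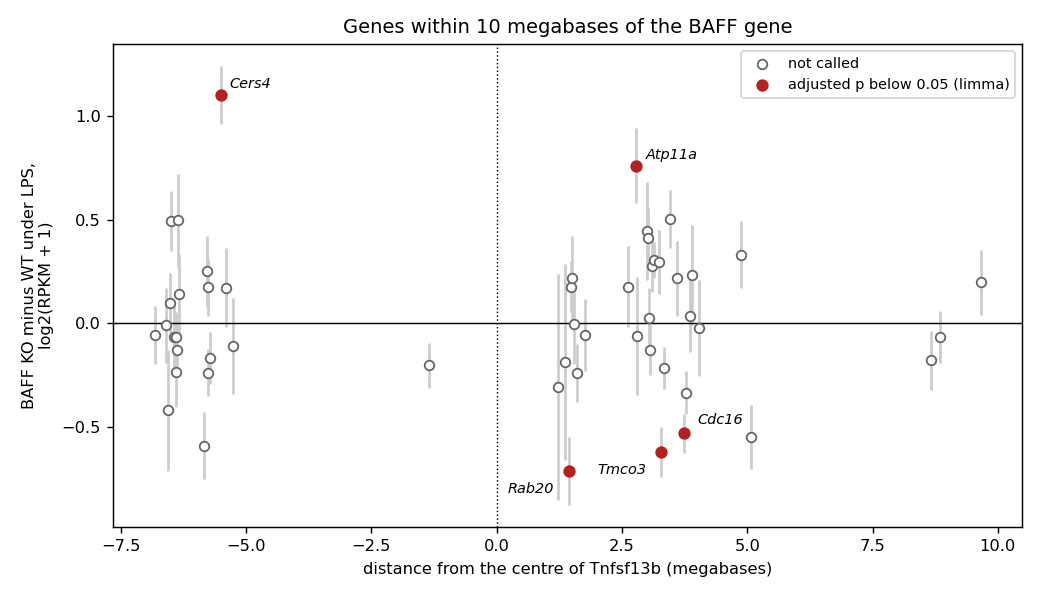
Difference between BAFF KO and WT macrophages under LPS, log2(RPKM + 1) with SE bars, for the 52 tested genes within 10 megabases of the BAFF gene, by distance from the centre of that gene; filled points passed an adjusted p of 0.05 (limma). Cers4 at 1.10 is the highest point and 4 other genes passed, 1 above and 3 below 0.

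The Cers4 promoter window (RefSeq, GRCm38.p6, chr8:4493155-4493454, plus strand) is shown because Cers4 differed by BAFF genotype, and its capitals mark 2 matches to the kB consensus and 1 to the GC box GGGCGG.
Cers4: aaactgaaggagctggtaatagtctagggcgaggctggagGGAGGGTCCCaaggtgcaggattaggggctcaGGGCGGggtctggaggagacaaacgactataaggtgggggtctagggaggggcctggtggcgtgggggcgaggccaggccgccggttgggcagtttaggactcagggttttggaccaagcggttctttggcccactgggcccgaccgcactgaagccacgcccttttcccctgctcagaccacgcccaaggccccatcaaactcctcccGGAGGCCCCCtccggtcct
The kB consensus, the motif read by NF-kB, was found in 8.46% of all windows on either strand. Among the members it was in the windows of Cers4, at bases -210 to -201 and 31 to 40 from the start (the start base is 0), and of Sphk1. The GC box was found in 35.7% of all windows and in 7 of the 9 members.

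Smpd1 and Asah1 act on ceramide in the lysosome, where acid sphingomyelinase (Smpd1) releases it from sphingomyelin and acid ceramidase (Asah1) cleaves it to sphingosine. Asah1 had 129 and 136 RPKM in the BAFF KO LPS libraries, 111 and 115 in the APRIL KO LPS libraries and 110.4 and 112 in the WT LPS libraries. Unstimulated cells had 181 RPKM in BAFF KO, 199 in APRIL KO and 193 in WT. Asah1 was lower with LPS in every genotype, by -0.68 ± 0.054 on average and -0.25 relative to the median of all genes. Smpd1 had 3.21 and 3.44 RPKM in the BAFF KO LPS libraries, 2.56 and 2.76 in the APRIL KO LPS libraries and 2.31 and 2.77 in the WT LPS libraries. The unstimulated libraries had 5.98 RPKM in BAFF KO, 4.17 in APRIL KO and 5.11 in WT cells. The averaged difference of Smpd1 was -0.66 ± 0.107, or -0.22 relative to the median. The libraries of the 2 conditions did not overlap, but they did under quantile normalization, in the shallower columns alone and over the 18 columns. Under LPS neither gene differed past the threshold between BAFF KO and WT, with 0.25 ± 0.077 for Asah1 (limma, adjusted p = 0.089) and 0.29 ± 0.151 for Smpd1 (limma, adjusted p = 0.275). Of the 17 alternatives, Asah1 passed under 2, quantile normalization and the 18 columns as separate samples. Asah1 is also on chromosome 8, 31.3 megabases from Tnfsf13b.

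Cerk and Ugcg use ceramide as a substrate. Cerk, ceramide kinase, makes ceramide 1-phosphate, a lipid known to activate the phospholipase that releases arachidonic acid. It had 4.28 and 3.78 RPKM in the BAFF KO LPS libraries, 4.16 and 4.41 in the APRIL KO LPS libraries and 3.53 and 3.91 in the WT LPS libraries. Unstimulated cells had 30.0 RPKM in BAFF KO, 46.1 in APRIL KO and 44.5 in WT, far above every LPS library. Cerk was thus 7.44-fold lower with LPS in BAFF KO, 10.8-fold lower in APRIL KO and 11.96-fold lower in WT cells. Its averaged difference was the lowest of the list, at -2.58 relative to the median of all genes. The BAFF KO library was the low one of the unstimulated libraries, with 837 reads against 1249 in APRIL KO and 1169 in WT, and with LPS the BAFF KO libraries overlapped those of both other genotypes, while both APRIL KO libraries were above both WT libraries. Cerk lay at 0.09 ± 0.126 in BAFF KO against WT (limma, adjusted p = 0.701) and at 0.16 ± 0.126 in APRIL KO against WT (limma, adjusted p = 0.559). The Cerk promoter window (RefSeq, GRCm38.p6, chr15:86186092-86186391, minus strand) is shown for the gene with the lowest averaged difference, with its 1 match to the GC box in capitals.
Cerk: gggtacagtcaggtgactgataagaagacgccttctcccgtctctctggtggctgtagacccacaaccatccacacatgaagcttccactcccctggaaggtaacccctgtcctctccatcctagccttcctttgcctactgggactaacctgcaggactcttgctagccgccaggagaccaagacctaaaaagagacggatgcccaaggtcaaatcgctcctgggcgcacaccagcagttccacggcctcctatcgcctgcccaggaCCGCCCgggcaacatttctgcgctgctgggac
It held none of the other motifs searched on both strands, which were the kB consensus, the AP-1 motif TGANTCA, the E-box CACGTG, the interferon-stimulated response element (ISRE) and the PU.1 motif GAGGAA, nor TATAAA on its own strand. TGANTCA was found in 7.81% of all windows, the ISRE in 3.44%, GAGGAA in 28.3% and TATAAA in 8.32%.

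Ugcg, glucosylceramide synthase, starts the glycosphingolipids. It had 13.5 and 14.8 RPKM in the BAFF KO LPS libraries, 9.98 and 11.5 in the APRIL KO LPS libraries and 12.6 and 9.47 in the WT LPS libraries. Unstimulated levels were 4.06 RPKM in BAFF KO, 5.18 in APRIL KO and 6.32 in WT cells, all below the LPS libraries. Ugcg was 3.48-fold higher with LPS in BAFF KO, 2.08-fold in APRIL KO and 1.74-fold in WT cells, and its averaged difference was 1.07 ± 0.114, or 1.51 relative to the median. Between genotypes under LPS it did not pass the threshold, with 0.35 ± 0.161 for BAFF KO against WT (limma, adjusted p = 0.227) and -0.02 ± 0.161 for APRIL KO against WT (limma, adjusted p = 0.969).

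Sphingosine kinase 1 (Sphk1) makes sphingosine 1-phosphate, and the lyase encoded by Sgpl1 degrades it irreversibly. Under LPS, Sphk1 had the largest difference of the list between BAFF KO and each other genotype. It had 0.780 and 0.831 RPKM in the BAFF KO LPS libraries, 3.83 and 4.86 in the APRIL KO LPS libraries and 6.51 and 5.33 in the WT LPS libraries. The unstimulated libraries had 0.651 RPKM in BAFF KO, 0.883 in APRIL KO and 1.24 in WT cells. With LPS the BAFF KO libraries lay within the range of the unstimulated libraries, and every APRIL KO and WT library with LPS was above them. Sphk1 fell in BAFF KO against WT by 1.93 ± 0.171 (log2(RPKM + 1) ± SE; limma, adjusted p = 0.00144) and in BAFF KO against APRIL KO by 1.56 ± 0.171 (limma, adjusted p = 0.00351). APRIL KO against WT gave -0.37 ± 0.171 and did not pass (limma, adjusted p = 0.343).

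In reads, Sphk1 had 36 in the 2 BAFF KO LPS libraries, 206 in the APRIL KO LPS libraries and 253 in the WT LPS libraries, and 14, 18 and 26 in the unstimulated libraries. As a share of all reads the BAFF KO level with LPS was 0.132 of the WT level (95% interval 0.0902 to 0.187, counting error only), which is 7.59-fold lower. The LPS response of Sphk1 was 0.13 ± 0.210 in BAFF KO, 1.499 ± 0.210 in APRIL KO and 1.63 ± 0.210 in WT cells. The falls in BAFF KO against WT and against APRIL KO were called under all 17 alternatives run. Differences were -2.73 to -1.80 against WT and -2.29 to -1.42 against APRIL KO. These alternatives are not equally strict: the 18 separate columns count columns of 1 library as replicates. Leaving out a library of a group outside the comparison left the difference itself unchanged. The skeletal muscle sum given above was lower in both BAFF KO and APRIL KO libraries than in WT libraries, and its part in the Sphk1 differences was not tested. An antisense gene, Gm29292, overlaps Sphk1 and was not analysed here. The Sphk1 promoter window is shown for this gene (RefSeq, GRCm38.p6, chr11:116530850-116531149, plus strand, the nearest of 5 windows to the GENCODE M21 start), and its capitals mark a match to the kB consensus at bases -91 to -82 and TATAAA at bases -31 to -26.
Sphk1: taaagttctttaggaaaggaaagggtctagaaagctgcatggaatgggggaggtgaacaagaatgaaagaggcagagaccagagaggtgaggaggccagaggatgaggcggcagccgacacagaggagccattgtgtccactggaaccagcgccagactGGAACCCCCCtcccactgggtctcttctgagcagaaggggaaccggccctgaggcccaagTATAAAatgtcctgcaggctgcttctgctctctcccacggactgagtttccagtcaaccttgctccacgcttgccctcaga
TATAAA was found on the gene's own strand in none of the other members' windows.

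Sgpl1 had 86.9 and 105 RPKM in the BAFF KO LPS libraries, 74.6 and 74.8 in the APRIL KO LPS libraries and 71.6 and 61.6 in the WT LPS libraries. The unstimulated libraries had 80.1 RPKM in BAFF KO, 125 in APRIL KO and 111.5 in WT cells. With LPS both BAFF KO libraries were above all others, and without it the BAFF KO library was the lowest. Sgpl1 rose in BAFF KO against WT under LPS by 0.52 ± 0.115 (limma, adjusted p = 0.0351). That call was lost when any 1 of the 6 LPS libraries was left out (adjusted p 0.0536 to 0.184), with no filter (0.0566), in the shallower columns (0.186) and with the replicate number as a block (0.0646). The LPS response of Sgpl1 was 0.25 ± 0.140 in BAFF KO, -0.73 ± 0.140 in APRIL KO and -0.74 ± 0.140 in WT cells. Its averaged response, -0.41 ± 0.081, turned to 0.11 under median ratio scaling and was 0.03 relative to the median of all genes. The ratio of Sphk1 to Sgpl1 RPKM within a library was 0.00844 ± 0.000751 in BAFF KO, 0.0582 ± 0.00969 in APRIL KO and 0.0888 ± 0.00312 in WT cells with LPS (SD, n = 2 each), and 0.00812, 0.00707 and 0.0111 without it. With LPS this ratio was thus near its unstimulated value in BAFF KO libraries and higher in the other 4.

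**Figure D4:**
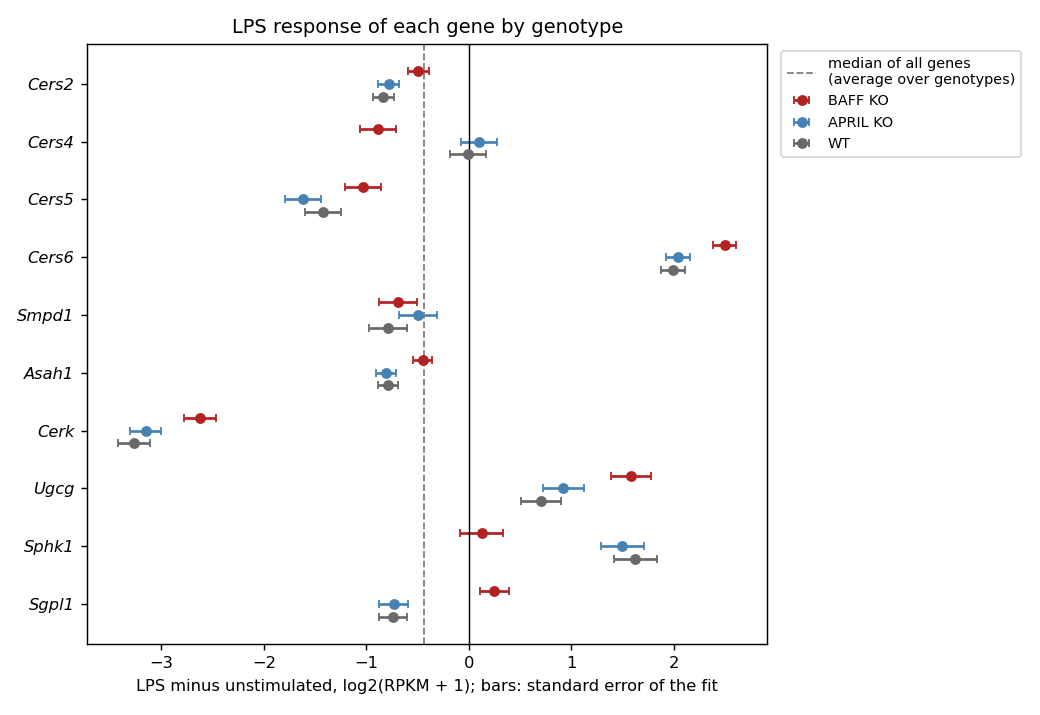
LPS minus unstimulated difference of each gene in BAFF KO, APRIL KO and WT macrophages on the log2(RPKM + 1) scale, with SE bars from the fit; the dashed line is the median of all genes, -0.44. Cerk lies at -2.63 to -3.27 and Cers6 at 1.99 to 2.497 in all genotypes, while Sphk1 lies at 0.13 in BAFF KO and at 1.499 and 1.63 in APRIL KO and WT.

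Across the list, 2 of the 10 genes rose and 1 fell in BAFF KO against WT under LPS, namely Cers4, Sgpl1 and Sphk1. Of all 9934 genes 8.34% were called in this comparison, 3.99% higher and 4.35% lower. All 10 genes passed the filter, but Cers4 only through the BAFF KO groups and Sphk1 only through other groups. Sphk1 reached 1 RPKM in both WT groups and in APRIL KO with LPS, and in no BAFF KO group. Without the filter its adjusted p was 0.00443 for BAFF KO against WT and 0.0108 against APRIL KO (limma). The median difference of the 10 was 0.26, and that of all genes 0.02. Cers6 was at 0.27 ± 0.095 without passing the threshold (limma, adjusted p = 0.125), and both BAFF KO libraries lay above both WT libraries. In APRIL KO against WT 0 of 10 were called by limma and 1 had an unadjusted p under 0.05, Cers6 at 0.27 ± 0.095 (limma, adjusted p = 0.257), and 0.211% of all genes were called, 0.0101% higher and 0.201% lower. In BAFF KO against APRIL KO Cers4 rose and Sphk1 fell, and 5.54% of all genes were called, 2.48% higher and 3.06% lower. The comparisons share libraries: BAFF KO and APRIL KO are set against the same WT libraries, and BAFF KO against APRIL KO reuses the knockout libraries.

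**Figure D5:**
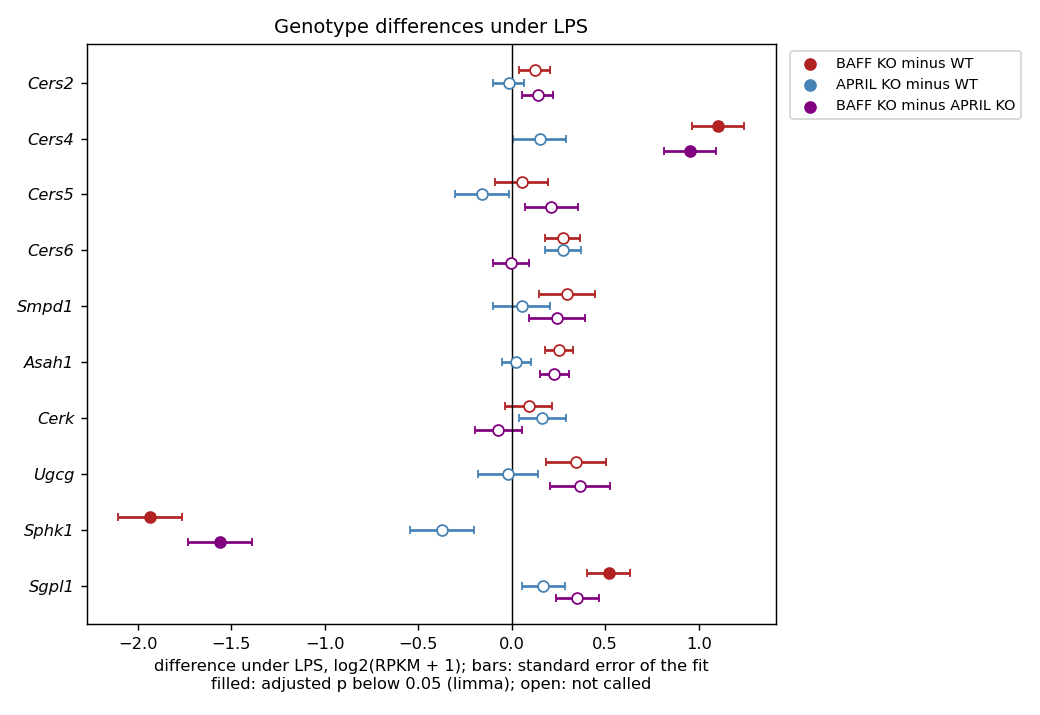
Differences between genotypes under LPS for each gene on the log2(RPKM + 1) scale, with SE bars from the fit; filled points passed an adjusted p of 0.05 (limma) and open points did not. Filled points are Cers4 at 1.10 and 0.95, Sphk1 at -1.93 and -1.56, and Sgpl1 at 0.52.

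Whether the LPS response itself differed by genotype was tested as an interaction that rests on 1 unstimulated library per genotype. For BAFF KO minus WT, limma called 0 of the 10 genes, against 0.443% of all genes (0.221% higher, 0.221% lower). Of the 10, 8 had an unadjusted p under 0.05, as did 2141 of the 9934 genes tested. The smallest adjusted p were 0.0737 for Sphk1, with -1.496 ± 0.296, and 0.0745 for Sgpl1, with 0.99 ± 0.199. Ugcg gave 0.88 ± 0.278 (limma, adjusted p = 0.142) and Cers4 -0.88 ± 0.245 (limma, adjusted p = 0.121). For APRIL KO minus WT, limma called 0 of the 10, with 0 at an unadjusted p under 0.05, and 0.0% of all genes. Without stimulation, with 1 library each and no test, BAFF KO had 11.2 times the WT RPKM of Cers4 and 1.17 times that of Smpd1. The BAFF KO level of the other 8 was below that of WT, at 0.527 of it for Sphk1, 0.642 for Ugcg, 0.674 for Cerk, 0.719 for Sgpl1, 0.780 for Cers5, 0.829 for Cers6, 0.858 for Cers2 and 0.942 for Asah1.

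Other genes of sphingolipid metabolism were taken from a textbook list of 63, of which 47 were in the table and 45 were tested. With LPS averaged over genotypes 9 rose and 28 fell, while 80.2% of all genes were called, 18.1% higher and 62.1% lower; their median was -0.54, against -0.44 for all genes. Under median ratio scaling 13 of the 45 rose and 19 fell, with 31.0% of all genes higher and 30.1% lower, and under quantile normalization 10 rose and 24 fell, with 24.3% higher and 41.8% lower. The 8 genes named next were called in the same direction under both. The 4 largest rises were Smpdl3b (1.40) and Plpp3 (1.37), which encode a sphingomyelinase-like phosphodiesterase and a lipid phosphatase, then the neutral ceramidase Asah2 (1.17) and the lactosylceramide synthase B4galt5 (1.08). The 4 largest falls were the galactosylceramidase Galc (-1.42), the second sphingosine kinase Sphk2 (-1.38), the non-lysosomal glucosylceramidase Gba2 (-1.33) and Samd8 (-1.33), a relative of the sphingomyelin synthases. Sphk2 averaged 5.59 RPKM over the LPS libraries (SD 0.790, n = 6) against 16.0 over the unstimulated ones (SD 0.900, n = 3), while Sphk1 overlapped between conditions. In BAFF KO against WT under LPS 3 of the 45 rose and 0 fell, where 3.99% of all genes were called higher and 4.35% lower: Gltp, a glycolipid transfer protein (0.56 ± 0.101; limma, adjusted p = 0.0174), St3gal5, the GM3 synthase (0.55 ± 0.118; limma, adjusted p = 0.0328), and Smpdl3a, a further phosphodiesterase (0.49 ± 0.075; limma, adjusted p = 0.00956). That count was 0 or 1 when any 1 WT or BAFF KO LPS library was left out. In APRIL KO against WT limma called 0 of the 45, where only 0.211% of all genes were called. In BAFF KO against APRIL KO, where 2.48% of all genes were called higher and 3.06% lower, 4 of the 45 rose and 0 fell. They were St3gal5 (0.56; limma, adjusted p = 0.0379), Smpdl3a (0.45; adjusted p = 0.0154), Gla (0.41; adjusted p = 0.0417) and Sptlc2 (0.45; adjusted p = 0.0257). Sptlc2 is a subunit of the serine palmitoyltransferase that begins the pathway. How this count changes with a library left out is not given here.

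The genes whose log2(RPKM + 1) followed Cerk and Cers6 most closely over the 9 libraries shared their split by LPS, as did many genes. For Cerk these were Gtf2i, Coro1c and Itgb5 (Pearson r of 0.998, 0.998 and 0.997), and 1467 genes had an r above 0.95. For Cers6 they were Usp25, Tor1aip1 and Inpp5b (r of 0.999 each), with 662 genes above 0.95. These correlations describe 9 libraries that share treatment and genotype, and no test was made.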

How the data were processed

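Per the submitters' processing notes, reads were aligned with STAR to mm10; the counter, annotation and any gene filter were not given in the sources used here. RPKM values were deposited by the authors for 11164 genes in 18 columns, with 1 read added to each count and counts of 0 set to a fixed floor, as the values show: reads recovered from the deposited RPKM were whole within 0.01 reads for 100% of values. Depth was 5121833 to 6020780 reads per library in listed genes.

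The 2 columns of a library were averaged, and 9934 genes whose mean reached 1 RPKM in any of the 6 groups were kept. log2(RPKM + 1) was fitted with limma 3.58.1 in R 4.3.3 on 6 group means, with 3 residual degrees of freedom and eBayes with trend. Tests were 2-sided, with Benjamini-Hochberg adjustment and an adjusted p below 0.05 as threshold. The fit was also run on simulated independent libraries. That run does not check the calls made here, since the replication of these libraries is unknown. Groups of 1 library take their spread from the others. Alternatives were quantile normalization, median ratio scaling, a pseudocount of 0.1, no filter, 1 index column alone (the shallower or the deeper), 18 separate columns, a replicate block and leaving out each library.

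The members and lists were chosen with earlier results of these data known. Named genes are the 10 members, the up to 4 largest called rises and falls among other sphingolipid genes, and the 3 genes most correlated with the members of highest and lowest averaged LPS difference. Positions come from GENCODE M21, and promoter windows, matched for 9 of 10 members, from RefSeq (GRCm38.p6). Dendritic, stromal, mast cell and B cell markers were also measured.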

Additional observations from a re-analysis of the deposited data

Results flagged for a closer look

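By library, Sgpl1, the gene of sphingosine 1-phosphate lyase, was slightly higher with LPS in BAFF KO and lower in WT macrophages. The responses were 0.25 ± 0.140 and -0.74 ± 0.140 (log2(RPKM + 1) ± SE of the fit). Both BAFF KO LPS libraries, at 86.9 and 105 RPKM, were above the unstimulated BAFF KO library at 80.1 RPKM, while both WT LPS libraries, at 71.6 and 61.6 RPKM, were below the unstimulated WT library at 111.5 RPKM. The difference of the responses was 0.99 ± 0.199 on the log2(RPKM + 1) scale and missed the threshold (limma, adjusted p = 0.0745). It ranged from 0.85 to 1.13 over 15 alternatives, of which only the 18 columns taken as separate samples passed the threshold. It rests on 1 unstimulated library per genotype. In single columns, 1 BAFF KO LPS column, at 78.2 RPKM, lay below both unstimulated BAFF KO columns, at 78.6 and 81.7. The response averaged over genotypes turned from -0.41 to 0.11 under median ratio scaling.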

How the results depend on the processing

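Depth and replication limit these results: Cers4 had 1 to 72 reads per column and Sphk1 4 to 96, each unstimulated group had 1 library, and 3 residual degrees of freedom stood behind every test. No result changed sign past the threshold. Sphk1 was called in BAFF KO against WT and against APRIL KO under all 17 alternatives. Of the 10 enzyme genes, 3 were called in BAFF KO against WT, but 1 in the shallower columns alone and 6 with the 18 columns as separate samples. Sgpl1, among those 3, was lost with no filter and when any 1 of the 6 LPS libraries was left out. Under quantile normalization Asah1 was called in addition. In BAFF KO against APRIL KO 2 were called, 1 in the shallower columns, 5 with 18 columns and 1 to 2 when a library was left out. With 18 columns, 1 was called in APRIL KO against WT and 8 in the BAFF KO interaction, where columns of 1 library count as replicates. The share of all genes called in genotype comparisons under the alternatives is not given here. Nothing particular to the enzyme genes is therefore read from these counts. The interactions could not be fitted without the unstimulated library of their own genotypes.

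Of the other sphingolipid genes, 3 were higher in BAFF KO against WT, 1 in the shallower columns, 9 with 18 columns (and 2 lower) and 0 to 3 when a library was left out; with 18 columns 4 were higher and 4 lower in APRIL KO against WT. For these counts, too, the share of all genes under each alternative is not given, so nothing particular to these genes is read from them. Median ratio scaling left 3 of the 5 enzyme genes lower with LPS. Shares of the summed synthase RPKM moved between the shallower and the deeper columns: in WT with LPS Cers2 was at 59.3% and 55.9%, Cers4 at 0.349% and 0.646%, Cers5 at 6.75% and 6.21% and Cers6 at 33.6% and 37.2%; Cers4 in APRIL KO with LPS was at 0.494% and 0.762%, and Cers6 in BAFF KO with LPS at 36.4% and 38.1%. The cause was not tested.

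With the replicate number as a block, 2 of the 10 were called in BAFF KO against WT and 2 in BAFF KO against APRIL KO. Whether the numbers pair the samples cannot be told from 2 LPS libraries per group. Deviations of same-numbered LPS libraries from their group means correlated at -0.18 (WT and BAFF KO), -0.10 (WT and APRIL KO) and 0.12 (BAFF KO and APRIL KO).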

Other observations

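Outside the naming rule, and chosen after the values were seen, the genes most like Sphk1 and Cers4 over the 9 libraries were also read out. For Sphk1 they were Mt2, a metallothionein (Pearson r of 0.987), Timd4, a phosphatidylserine receptor (0.981), and Errfi1, a feedback inhibitor of the EGF receptor (0.981), and 22 genes had an r above 0.95. Mt2 averaged 42.9 RPKM in BAFF KO, 366 in APRIL KO and 464 in WT cells with LPS, and 41.0, 30.1 and 45.7 RPKM without it. For Cers4 they were Fabp4, a fatty acid binding protein (r of 0.945), Gstm1, a glutathione transferase (0.928), and Ptgr1, a prostaglandin reductase (0.928), and 0 genes had an r above 0.95. Fabp4 averaged 342.5 RPKM in BAFF KO, 227 in APRIL KO and 259 in WT cells with LPS, and 606, 239 and 227 RPKM without it. These likenesses describe 9 libraries that share treatment and genotype, and no test was made.

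Among the other marker lists, B cell markers (4 of 5 in the table) summed to 11.2 to 16.8 RPKM in BAFF KO, 26.0 to 29.4 in APRIL KO and 23.2 to 26.5 in WT cells with LPS, and to 19.1, 29.0 and 32.9 RPKM without it. Dendritic markers (4 of 5) summed to 17.4 to 18.8, 24.2 to 27.2 and 22.2 to 25.3 RPKM with LPS in the same genotypes, and mast cell or basophil markers (5 of 5) to 47.7 to 51.9, 47.1 to 55.8 and 37.1 to 42.4 RPKM. Stromal markers (5 of 5) ranged from 8.57 to 41.6 RPKM in BAFF KO, 14 to 432 in APRIL KO and 52.4 to 223 in WT cells with LPS. Of the T or NK cell markers, 0 of 5 were in the table. The part of the cells behind these marker lists in the enzyme results was not tested.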
